A study of Sus scrofa with 6 samples.

Results

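Ear tissue RNA was followed here for a regulator of the hair shaft, *HOXC13*, and for 3 further genes that are known from hair but encode no keratin, *GPRC5D*, *TCHHL1* and *HEPHL1*. The genes were chosen by the study's own contrast of genotypes in these same piglets: their names stand in its table of differentially expressed genes, and the transcripts described are those that this table gives these names. That table holds 5 such transcripts, of 280 with a name, and 4 of the 5 have a row in the deposited tables, of 22204 transcripts with a read in any library. Differences between the genotypes are therefore given as a description of these piglets, and the calls of the fits over all transcripts are printed for these genes without support being drawn from them. The samples are ears of newborn piglets of Sutai, a breed from crosses of Duroc and Meishan pigs. Of these, 3 piglets carry the genotype QQ at the ear size locus of chromosome 5 (6185STQ, 6415 and 6434) and 3 carry qq (6161ST, 6165ST and 6407). The QQ piglets are the CNV/CNV animals of the study, which are homozygous for a copy number variation at the end of *MSRB3*, and the qq piglets are its wild-type animals. The breed, tissue and age are the same for all 6, and the sources used here do not give the sex or litter. Each library comes from 1 piglet, so that the replicates are animals.

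A hair shaft is built in the follicle by epithelial cells that leave the matrix of the bulb, fill with hair keratins and keratin-associated proteins, and harden. *HOXC13* encodes a homeobox transcription factor of these differentiating cells that binds hair keratin promoters, and people who lack it have ectodermal dysplasia of hair and nails. *GPRC5D* encodes an orphan receptor with a membrane structure of the G protein-coupled type, which is found in the cortex of the hair and in plasma cells. *TCHHL1* encodes a trichohyalin-like protein of the S100 fused-type family, whose best known members, trichohyalin and filaggrin, fill hardening cells. *HEPHL1* encodes a multicopper ferroxidase, a relative of ceruloplasmin, and loss of its function gives abnormal, twisted hair.

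The table of the study places the *HOXC13* transcript ENSSSCT00000000300 on chromosome 5 of Sscrofa11.1 from 19151169 to 19157645. *GPRC5D* (ENSSSCT00000025280) lies on the same chromosome from 59535089 to 59546262, and *HEPHL1* (ENSSSCT00000028395) on chromosome 9 from 26356195 to 26436441. For *TCHHL1* both transcripts are absent from the gene set of Sscrofa11.1 in that table. On Sscrofa10.2 it places ENSSSCT00000036339 on chromosome 4 from 106139258 to 106144074, and ENSSSCT00000031365 on the unplaced scaffold GL894820-2 from 75048 to 78215. The second of these has no row in the tables used here, which list transcripts with at least 1 uniquely mapped read. It is counted as 0 in all 6 libraries and is not described further. Of the 280 named transcripts, 264 have a row. Whether the missing one had no unique reads or was not in the gene set counted cannot be told. Any reads that map to both places would be missing from ENSSSCT00000036339 too. All values of *TCHHL1* below are those of ENSSSCT00000036339. The transcript lengths behind the values are 999 bases for *HOXC13*, 1191 for *GPRC5D*, 3423 for *TCHHL1* and 1374 for *HEPHL1*. All 4 are multiples of 3, as are 46.5% of all lengths. On Sscrofa10.2 the *HEPHL1* transcript runs from 30106486 to 30130078, a shorter stretch than on Sscrofa11.1. Whether the transcript models behind these lengths are complete cannot be told here.

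Libraries held from 39.3 M to 44.2 M reads assigned to transcripts. RPKM is the read number of a transcript relative to its length and to the total of the library. The TMM factors with which edgeR scales these totals were 1.069 in 6161ST, 1.07 in 6165ST and 0.9965 in 6407. In 6185STQ, 6415 and 6434 they were 0.9603, 0.9614 and 0.9508. RPKM does not use them, so the CNV/CNV piglets stand lower against the wild-type piglets in RPKM than on the TMM scale. In a principal component analysis of the 500 transcripts with the highest variance, a first component with 45.9% of it put 6161ST at -28.4 and 6165ST at -30.8, while the other 4 libraries, the wild-type piglet 6407 included, lay between 1.78 and 24.2. The fold changes and keratin-scaled values of the 4 genes and the lists of hair shaft, copper and iron, cartilage and pigment genes are also given without this pair, and profile likeness is given without 6165ST.

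*HOXC13* had 19.7 RPKM in 6161ST, 31.0 in 6165ST and 13.3 in 6407 of the wild-type group, from 808, 1251 and 585 reads. In the CNV/CNV group it had 12.8 RPKM in 6185STQ, 7.98 in 6415 and 10.1 in 6434, from 503, 348 and 431 reads. The group means were 21.3 ± 8.97 RPKM (SD, n = 3) for wild-type against 10.3 ± 2.42 RPKM (SD, n = 3) for CNV/CNV. The lowest wild-type piglet stood 1.03-fold above the highest CNV/CNV piglet, and the exact Poisson intervals of these 2 libraries, which cover counting error only, ran from 12.2 to 14.4 and from 11.7 to 13.99 RPKM. The groups thus touched within counting error. On log2 CPM (counts relative to library totals that were scaled by edgeR's TMM factors) both piglets were at 3.74, with 6185STQ the higher of the pair, so that the gap seen in RPKM was lost. The fitted log2 fold change, CNV/CNV minus wild-type, was -0.91 (standard error 0.30).

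*GPRC5D* was the most abundant of the 4 transcripts. Its levels were 107 RPKM in 6161ST, 244 in 6165ST and 69.2 in 6407, against 83.2 in 6185STQ, 52.7 in 6415 and 68.2 in 6434. The means were 140 ± 92.1 RPKM (SD, n = 3) for wild-type and 68.0 ± 15.2 RPKM (SD, n = 3) for CNV/CNV. Here the groups overlapped, since the CNV/CNV piglet 6185STQ lay above the wild-type piglet 6407. With 2741 to 11750 reads a library, the counting error was at most 3.82% of a value, far below the 3.53-fold range among the wild-type piglets. The fitted log2 fold change was -0.90 (standard error 0.41).

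*TCHHL1* had 10.7 RPKM in 6161ST, 22.0 in 6165ST and 10.0 in 6407, and 6.43 in 6185STQ, 6.27 in 6415 and 5.41 in 6434. The CNV/CNV piglets lay close together, within 1.19-fold of one another, while the wild-type piglets spanned 2.20-fold. The means were 14.2 ± 6.75 RPKM (SD, n = 3) and 6.03 ± 0.548 RPKM (SD, n = 3), with the lowest wild-type piglet 1.56-fold above the highest CNV/CNV piglet and a fitted log2 fold change of -1.10 (standard error 0.29). The deposited tables also give a coverage, read here as the share of the transcript's length that has reads. For *TCHHL1* it ran from 82.9% to 91.1% in wild-type and from 63.5% to 75.7% in CNV/CNV piglets. For the other 3 genes it was 96.5% or more in every library.

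*HEPHL1* had 14.7 RPKM in 6161ST, 22.9 in 6165ST and 10.3 in 6407, and 5.50 in 6185STQ, 7.17 in 6415 and 6.24 in 6434. The groups did not overlap, with a 1.43-fold gap between the lowest wild-type and the highest CNV/CNV piglet. The means were 16.0 ± 6.41 RPKM (SD, n = 3) and 6.30 ± 0.835 RPKM (SD, n = 3). The fitted log2 fold change of -1.20 (standard error 0.27) was the one farthest from 0 among the 4 genes. The transcript was carried by 297 to 1273 reads a library, for a counting error of at most 12.0% of a value.

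**Figure D1:**
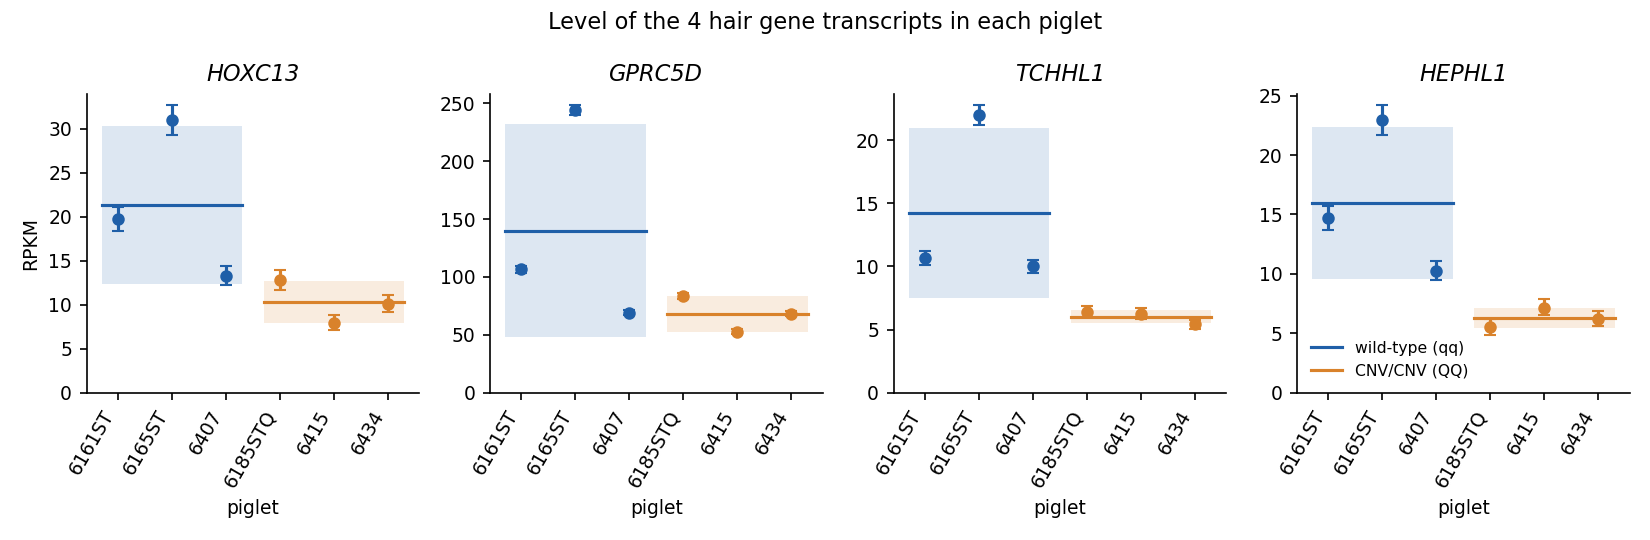
RPKM of each of the 4 transcripts (vertical axis, from 0) in each of the 6 piglets (horizontal axis). Points are single libraries with exact 95% Poisson intervals of the read count, lines are group means and shaded bands are ± 1 SD (n = 3). The wild-type piglet 6165ST is the highest in all panels, and the groups overlap for *GPRC5D*, where 6185STQ at 83.2 RPKM lies above 6407 at 69.2 RPKM.

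All 4 transcripts were highest in 6165ST, and in RPKM the order of the wild-type piglets was 6165ST, 6161ST and 6407 in all 4. For *TCHHL1* the counting intervals of 6161ST (10.1 to 11.2 RPKM) and 6407 (9.502 to 10.52 RPKM) overlapped, and on log2 CPM 6407 was the higher of them. For comparison, 20.7% of the 16645 transcripts kept by edgeR's filter on low counts were highest in 6165ST. The CNV/CNV piglets had no such common order, as 6185STQ was the highest of that group for *HOXC13*, *GPRC5D* and *TCHHL1* and the lowest for *HEPHL1*. The coefficient of variation was from 40.2% to 65.8% among the wild-type piglets and from 9.08% to 23.5% among the CNV/CNV piglets.

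In edgeR's quasi-likelihood test over all 16645 transcripts, 0 of the 4 were called lower at an adjusted p under 0.05, where the background of such calls was 0.0% of the transcripts. At an unadjusted p under 0.05 there were 3 of 4, all but *GPRC5D*, against 2.87% of all transcripts. DESeq2 called 1, *HEPHL1*, against 0.114%. On log2 CPM all 3 CNV/CNV piglets lay below all 3 wild-type piglets for 2 of the 4, *TCHHL1* and *HEPHL1*, against 5.61% of all transcripts. In RPKM this held for 3 of the 4, with *HOXC13* added, against 12.1%. The study chose the 4 on this contrast, so nothing is read from these counts.

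The size of the difference moved with the piglets used. Without 6165ST the fitted log2 fold change was -0.56 for *HOXC13*, -0.25 for *GPRC5D*, -0.67 for *TCHHL1* and -0.87 for *HEPHL1*. Without any 1 of the other 5 piglets it stayed between -1.42 and -0.74 over the 4 genes. Without both 6161ST and 6165ST, which leaves 6407 as the only wild-type piglet, it was -0.31 for *HOXC13*, 0.026 for *GPRC5D*, -0.68 for *TCHHL1* and -0.65 for *HEPHL1*. The names of 3 piglets hold the letters ST, and the labels do not say what these stand for. Between the piglets with ST in the name, the CNV/CNV piglet minus the mean of both wild-type piglets was -0.95 for *HOXC13*, -0.95 for *GPRC5D*, -1.25 for *TCHHL1* and -1.74 for *HEPHL1* in log2 RPKM. Between the other 3, as the mean of both CNV/CNV piglets minus 6407, it was -0.56, -0.21, -0.78 and -0.62 in the same order. The sign was thus negative within both sets for each gene, and in each case nearer 0 among the piglets without these letters. With a term for the letters in the fit, the log2 fold change was -0.66 for *HOXC13*, -0.53 for *GPRC5D*, -0.95 for *TCHHL1* and -1.08 for *HEPHL1*.

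**Figure D2:**
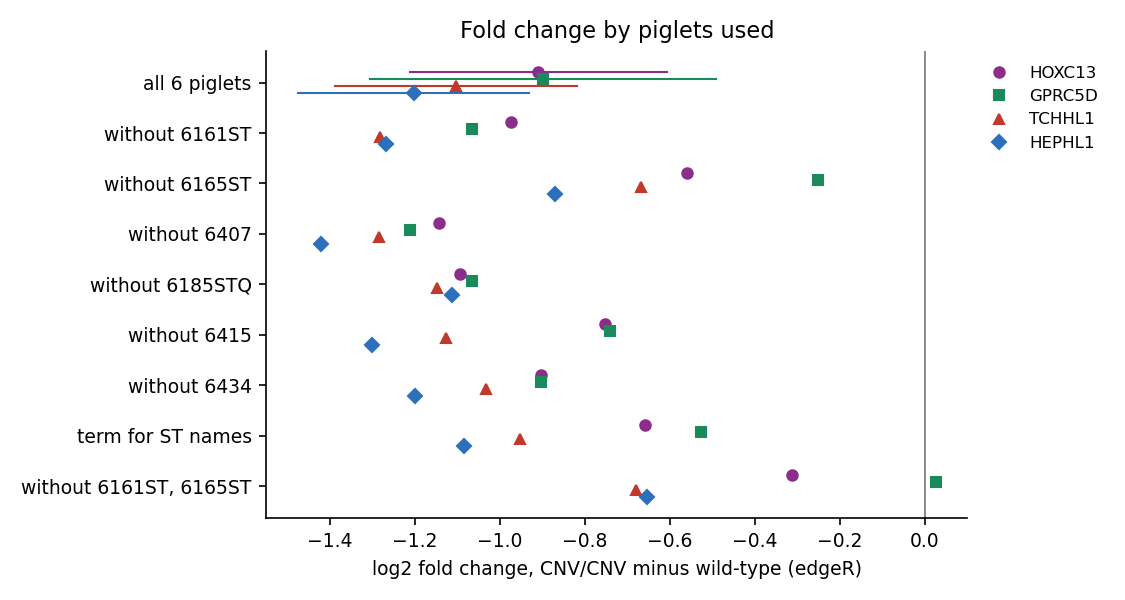
Log2 fold change, CNV/CNV minus wild-type (horizontal axis), of the 4 genes in edgeR fits that use all 6 piglets, leave out 1 piglet, add a term for names with ST or leave out both 6161ST and 6165ST (vertical axis). Bars in the top row are ± 1 standard error. The points without 6165ST lie nearest 0 among the fits that leave out 1 piglet, at -0.25 for *GPRC5D*.

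How the levels of the genes compare with one another was not part of the choice of genes and could be tested. The test covers the spread between piglets only. RPKM of different genes also depends on the transcript model and on which parts of it take unique reads. For *TCHHL1* the coverage was 63.5% to 91.1%. The order was read from the same libraries. By mean RPKM over the 6 piglets the genes were *GPRC5D* (104), *HOXC13* (15.8), *HEPHL1* (11.14) and *TCHHL1* (10.1). *GPRC5D*, the receptor gene, was above 94.5% to 98.7% of the transcripts listed in any library, and *TCHHL1* above 63.3% to 84.7%. *GPRC5D* exceeded *HOXC13* in 6 of 6 piglets, by 2.66 ± 0.22 (SD, n = 6) in log2 RPKM, a 6.33-fold difference (two-sided exact permutation p = 0.0313, Benjamini-Hochberg adjusted p = 0.0469 over 3 neighbouring pairs). *HOXC13* exceeded *HEPHL1* in 6 of 6 piglets by 0.55 ± 0.37 (SD, n = 6), with the same exact permutation p of 0.0313 and adjusted p of 0.0469. This p is the smallest that 6 piglets allow. *HEPHL1* and *TCHHL1* did not differ beyond their spread, with a difference of 0.12 ± 0.23 (SD, n = 6) that was positive in 5 of 6 piglets (exact permutation p = 0.219, adjusted p = 0.219). The exception was the CNV/CNV piglet 6185STQ, in which *TCHHL1* stood above *HEPHL1*.

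Ratios of these genes within a library are free of the scaling between libraries. *HOXC13* had 0.127 to 0.192 of the RPKM of *GPRC5D*, with 0.185 in 6161ST, 0.127 in 6165ST, 0.192 in 6407, 0.154 in 6185STQ, 0.151 in 6415 and 0.149 in 6434. The 3 CNV/CNV piglets were nearly alike in this ratio and lay inside the wild-type range. *TCHHL1* had 0.725 to 1.17 of the RPKM of *HEPHL1*, lowest in 6161ST and highest in 6185STQ. The transcription factor gene and the ferroxidase gene parted most in 6185STQ, where *HOXC13* stood 2.33-fold above *HEPHL1*, against 1.11-fold in 6415, 1.62-fold in 6434 and 1.29- to 1.35-fold in the wild-type piglets. *GPRC5D* stood 15.1-fold above *HEPHL1* in 6185STQ and 6.73- to 10.9-fold above it in the other 5 libraries. The library of 6185STQ thus combined the highest CNV/CNV levels of *HOXC13* and *GPRC5D* with the lowest level of *HEPHL1* in any library.

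**Figure D3:**
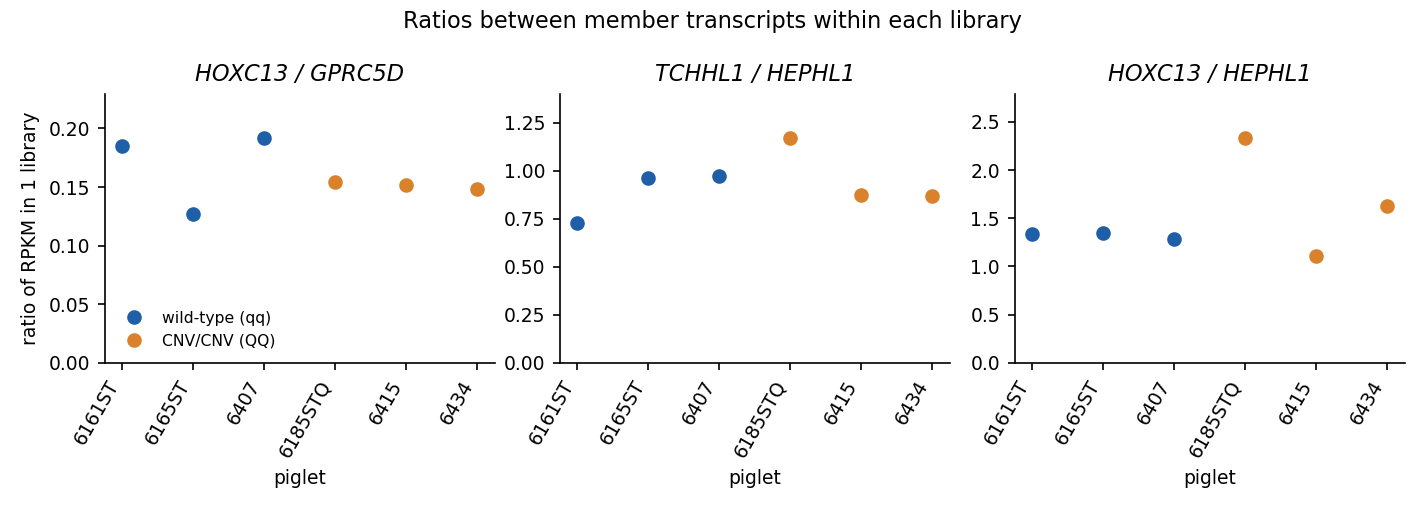
Ratio of the RPKM of 2 transcripts within each library (vertical axis, from 0) for 3 pairs of genes, by piglet (horizontal axis), with wild-type in blue and CNV/CNV in orange. The ratio of *HOXC13* to *HEPHL1* is 2.33 in 6185STQ and from 1.11 to 1.62 in the other 5 libraries.

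The 4 genes were then set against the hair keratins, the main proteins of the shaft, by summing the RPKM of 11 keratin transcripts (5 of type I and 6 of type II) in each library. These keratins were also chosen by the study on these piglets, and the scaling was added after the values had been seen. The summed level was 2822 RPKM in 6161ST, 5827 in 6165ST and 1494 in 6407, and 1664 in 6185STQ, 1025 in 6415 and 1211 in 6434, so it was highest in 6165ST as well, and the groups overlapped. Per 1000 RPKM of hair keratin, *HOXC13* averaged 7.06 ± 1.78 RPKM (SD, n = 3) for wild-type against 7.95 ± 0.363 RPKM (SD, n = 3) for CNV/CNV. The values were 4.75 ± 1.68 and 4.81 ± 1.16 for *TCHHL1* and 5.34 ± 1.48 and 5.15 ± 1.84 for *HEPHL1* in the same order, each with overlapping groups. For *GPRC5D* they were 42.0 ± 4.28 and 52.6 ± 3.31. All 3 CNV/CNV piglets (50.0 to 56.3) lay above all 3 wild-type piglets (37.8 to 46.3), opposite to the order of its RPKM means. The sum includes *KRT81*, which had 546 ± 420 RPKM for wild-type and 98.7 ± 6.36 RPKM for CNV/CNV (SD, n = 3 in each group). Its log2 fold change of -2.32 (standard error 0.50) was the farthest below 0 of the 11. The scaling was not repeated without *KRT81*, so the order seen for *GPRC5D* holds for the sum of all 11 only. In RPKM the CNV/CNV mean was 0.384 of the wild-type mean for the summed keratins and 0.486 for *GPRC5D*. A gene that was lower by less than the keratins can rise on this scale. The share of all transcripts with such an order was not taken. Without 6161ST and 6165ST, the wild-type piglet 6407 alone had 46.3 for *GPRC5D*, still below the CNV/CNV piglets, and 6.88 for *HEPHL1*, inside their range of 3.31 to 6.99. It had 8.87 for *HOXC13* and 6.69 for *TCHHL1*, above the CNV/CNV ranges of 7.71 to 8.37 and 3.86 to 6.11. Over the 6 libraries the range of *HOXC13* was 3.88-fold in RPKM and 1.67-fold per hair keratin. The range of *GPRC5D* was 4.63-fold and 1.49-fold, that of *TCHHL1* 4.07-fold and 1.77-fold, and that of *HEPHL1* 4.16-fold and 2.11-fold. In bulk tissue, fewer hair-forming cells and less RNA of these genes in each cell cannot be told apart.

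**Figure D4:**
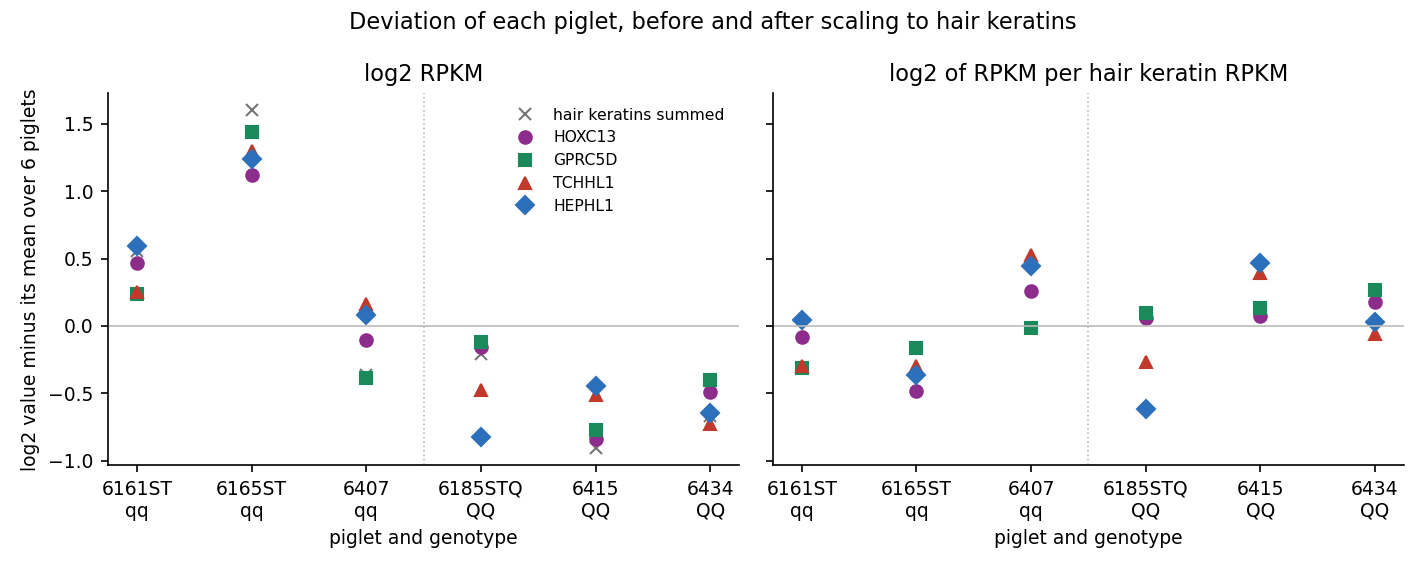
Deviation of each piglet from the mean of the 6 (vertical axis, log2) for the 4 genes and the summed hair keratins in RPKM (left) and for the 4 genes per hair keratin RPKM (right), by piglet and genotype (horizontal axis). On the left all symbols of 6165ST lie highest. On the right the range of *GPRC5D* is 1.49-fold and *HEPHL1* is lowest in 6185STQ.

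The likeness of profiles was taken as Pearson's r of log2 CPM over the 6 libraries, as a description without a test. It was highest in 2 pairs, at 0.96 between *HOXC13* and *GPRC5D* (0.93 without 6165ST) and 0.95 between *TCHHL1* and *HEPHL1* (0.88 without 6165ST). Between genes of different pairs it was from 0.80 to 0.91, and from 0.36 to 0.72 without 6165ST. All of these values share the same 6 libraries, and the piglet 6165ST carries much of those across the pairs. Of 13036 other transcripts, 32 were more like *GPRC5D* than *HOXC13* was, and 33 were more like *HEPHL1* than *TCHHL1* was. Between genes of different pairs this number was from 180 to 476. Among 208 transcripts with a name and at least 1 RPKM, the profiles most like that of *HOXC13* were those of *BAMBI*, a decoy receptor gene of BMP signalling (r = 0.99), and of the hair keratin genes *KRT31* (0.99) and *KRT85* (0.98). *BAMBI* had 26.9, 39.7 and 18.5 RPKM in 6161ST, 6165ST and 6407 and 16.6, 12.4 and 13.8 in 6185STQ, 6415 and 6434. The profile of *GPRC5D* was closest to those of the chemokine gene *CCL25* (0.99), a type I microfibrillar keratin transcript (0.99) and *KRTAP27-1* (0.99), a keratin-associated protein gene. That of *TCHHL1* was closest to *NHP2L1*, a gene of a small nuclear ribonucleoprotein (0.99), to the fatty acid elongase gene *ELOVL3* (0.97) and to *TRPM1*, a channel gene of pigment cells (0.96). *HEPHL1* was closest to *TRPM1* (0.99), *NHP2L1* (0.98) and the lipase gene *PNPLA3* (0.98). Thus a keratin or keratin-associated protein gene was among the nearest 3 for *HOXC13* and *GPRC5D* and for neither *TCHHL1* nor *HEPHL1*. These named transcripts all come from the study's table and are a small part of those measured. Without 6165ST the r of the nearest transcripts ran from 0.90 (*TRPM1* with *TCHHL1*) to 0.995 (*CCL25* with *GPRC5D*).

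The transcripts of the lists that follow took their names from the study's table, so that every one of them was also chosen on this contrast, and their counts, medians and directions are a description from which nothing is read. Of 17 transcripts of hair keratins, keratin-associated proteins and other shaft genes that were tested, 15 had a log2 fold change below 0. Their median was -1.02, where that of all transcripts was -0.00, and edgeR called 0 of the 17 at an adjusted p under 0.05, with 13 lower at an unadjusted p under 0.05 where 2.87% of all transcripts were. DESeq2 called 1 lower, where it called 0.114% of all transcripts. Without 6161ST and 6165ST, 14 of the 17 had a log2 fold change below 0 and the median was -0.36. As for the 4 genes, 15 of the 17 were highest in 6165ST. *DSG4*, a desmosomal cadherin gene of the hair shaft, had 18.0 ± 6.85 and 8.90 ± 1.53 RPKM (SD, n = 3 in each group, wild-type first), and *VSIG8*, also a gene of the shaft, had 79.4 ± 39.9 and 35.6 ± 4.79 RPKM. The exceptions, named after their values were seen, were *KRT83* and *KRT84*, which were highest in 6185STQ at 11.8 and 84.8 RPKM. Their log2 fold changes were 2.31 (standard error 1.39) and 3.39 (standard error 1.22). In 6415 and 6434 *KRT83* had only 0.666 and 0.324 RPKM, against 0.212, 2.41 and 0.214 in 6161ST, 6165ST and 6407. *KRT84* had 6.62 and 9.52 RPKM against 1.93, 8.30 and 0.434 in the same order. The groups overlapped for both genes. In either direction 14 of the 17 passed an unadjusted p under 0.05 in edgeR, where 890 of 16645 transcripts did. Only uniquely mapped reads were counted, so reads shared by near-identical keratin genes are missing from any of these keratin values. *RPTN*, which like *TCHHL1* belongs to the S100 fused-type family, had 2.01 ± 0.706 and 0.961 ± 0.150 RPKM and was highest in 6407 (2.56 RPKM), not in 6165ST. *SPR1*, put in the same list of S100 fused-type and cornified envelope genes by its name alone, had 325 ± 178 and 167 ± 8.49 RPKM. Which protein this transcript encodes was not checked. *CSTA5*, the third tested gene of this list, was nearly level between the groups' means, at 6.47 ± 2.57 and 6.27 ± 2.41 RPKM, so that 2 of 3 had a log2 fold change below 0. Among 4 copper and iron genes 3 had a log2 fold change below 0. EdgeR called 0 of these 4 at an adjusted p under 0.05 and 1 lower at an unadjusted p under 0.05, and DESeq2 called 0. Without 6161ST and 6165ST, 1 of the 4 had a log2 fold change below 0 and the median was 0.60. *CP*, the ceruloplasmin gene and a relative of *HEPHL1*, had 330 RPKM in 6161ST, 198 in 6165ST and 50.8 in 6407, and 52.8, 42.5 and 141 in 6185STQ, 6415 and 6434. Its highest piglet was 6161ST and its groups overlapped, unlike those of *HEPHL1*. *STEAP4*, a metalloreductase gene, had 5.40 ± 1.54 and 2.67 ± 0.442 RPKM. *MT3* had 36.6 ± 18.3 and 21.5 ± 5.46 RPKM. *TFRC*, the gene of this list with a log2 fold change above 0 (0.97, standard error 0.66), had only 0.080 ± 0.032 and 0.144 ± 0.124 RPKM.

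Markers of other tissue in the ear also varied between these libraries. All 8 cartilage genes had a log2 fold change above 0, of which 0 passed an adjusted or an unadjusted p under 0.05 in edgeR and 0 were called by DESeq2, and their summed level was 66.3 RPKM in 6161ST, 11.02 in 6165ST and 611 in 6407 against 422 to 934 RPKM in the CNV/CNV piglets. Without 6161ST and 6165ST, 2 of the 8 had a log2 fold change below 0, the median was 0.091, and the level of 6407 lay inside the CNV/CNV range. *COL2A1*, the defining collagen of cartilage, had 24.4 RPKM in 6161ST, 0.483 in 6165ST and 351 in 6407. In the CNV/CNV group it had 221 RPKM in 6185STQ, 542 in 6415 and 156 in 6434. The summed level of 8 pigment cell genes, all highest in 6165ST, was 160 to 294 RPKM for wild-type against 88.2 to 160 RPKM for CNV/CNV. All 8 had a log2 fold change below 0, with 7 at an unadjusted p under 0.05, where 2.87% of all transcripts were lower at that level, and 0 called by edgeR or DESeq2 at an adjusted p under 0.05. Without 6161ST and 6165ST all 8 were still below 0, with a median of -0.47. That of the sebaceous genes *ELOVL3* and *ELOVL6* was 28.1 to 89.7 and 18.0 to 28.6 RPKM. Of 2 blood genes *ALAS2* alone had a row, at 0.175 to 0.628 and 0.549 to 1.15 RPKM. The part of the makeup of the tissue pieces in the differences of *HOXC13*, *GPRC5D*, *TCHHL1* and *HEPHL1* was not tested.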

How the data were processed

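RNA from the ears of 6 piglets was sequenced by the study from both ends of poly(A)-selected fragments on a HiSeq platform, with 1 library each. The deposited counts are uniquely mapped reads per Ensembl transcript. The deposited RPKM values, made by the authors, were recomputed from counts, lengths and totals for 100% of the transcripts within 0.1%. The deposited coverage is in percent of the transcript. The methods name TopHat and Sscrofa11.1. Bowtie2, Cuffdiff and Sscrofa10.2 stand in the submitters' processing notes, so the build is open. The sources used here do not give the counting program or strand use. The study's own comparison was run with Cuffdiff on FPKM, and its columns were not used.

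The counts were fitted with edgeR 4.0.16 (R 4.3.3; filterByExpr, TMM, glmQLFit, glmQLFTest, genotype as the only term) with Benjamini-Hochberg adjustment over 16645 transcripts. The biological coefficient of variation was 0.263. Standard errors came from the F value. The script was tested on simulated data. Log2 CPM used a prior count of 2. Levels of neighbouring genes were compared by sign flips within piglets (scipy 1.17.1) for 3 pairs, since the fifth transcript had no row. Alternatives were DESeq2 1.42.0, upper quartile normalization, leaving low counts unfiltered, a minimum mean of 5 RPKM, a term for ST in the name, leaving out each piglet, and log2 RPKM with pseudocounts of 0.1 and 1. Added after the values were seen were the removal of both 6161ST and 6165ST, also for the gene lists, and the scaling to hair keratins. The members and gene lists were chosen with earlier results of these data known, and all transcripts of these lists carry names from the study's table of differential genes. The named genes were the members, examples from the lists, and for each member the 3 named transcripts of at least 1 RPKM with the most similar profile. Libraries correlated at 0.966 to 0.990 (Spearman) and none was a copy of another. No sequence is printed, and promoters and proteins were not analysed here.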

Additional observations from a re-analysis of the deposited data

How the results depend on the processing

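The log2 fold changes of *HOXC13*, *GPRC5D*, *TCHHL1* and *HEPHL1* stayed below 0 in every planned setting run. With 1 piglet left out they ran from -1.14 to -0.56, from -1.21 to -0.25, from -1.28 to -0.67 and from -1.42 to -0.87 in that order, each time nearest 0 without 6165ST. Without both 6161ST and 6165ST they were -0.31, 0.026, -0.68 and -0.65, the sign of *GPRC5D* being turned by a fit with 1 wild-type piglet. Scaled to the summed hair keratins, *KRT81* included, the differences were 0.20, 0.33, 0.048 and -0.080 in log2, with the sign turned for the first 3. The summed keratins were themselves lower in CNV/CNV piglets, at 0.384 of the wild-type mean. The levels of the genes relative to one another kept their order on log2(RPKM + 1) and without each piglet, although 5 piglets cannot pass a two-sided 0.05.

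Over all transcripts edgeR called 1 at an adjusted p under 0.05. The count was 28 with DESeq2, 3 with no filter, 0 at a mean of at least 5 RPKM, 2 with a term for ST in the name, 0 to 6 with 1 piglet left out (6 without 6407, 1 without 6434 and 0 without each of 6161ST, 6165ST, 6185STQ and 6415) and 0 without both 6161ST and 6165ST. The cause was not tested. Non-overlapping groups were found for 1673 transcripts on log2 CPM, of which 55.8% were lower in CNV/CNV piglets, for 2365 in RPKM, of which 85.2% were lower, and for 2128 with no filter. The labels give the piglets no shared replicate numbers, so no fit with a replicate block was made.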
